A study of Mus musculus and Homo sapiens with 12 samples.

Results

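Clustered histone genes are the replication-dependent histone genes that sit together in a few gene clusters of the mouse genome. They were taken as the protein-coding rows of the EMT6 expression table whose GENCODE M21 symbol starts with Hist1h, Hist2h, Hist3h or Hist4h, which gave 67 of 54331 rows. By cluster, 54 lie in the Hist1 cluster on chromosome 13, 10 in Hist2 on chromosome 3, 2 in Hist3 on chromosome 11 and 1, Hist4h4, on chromosome 6. By type, 6 encode linker histone H1, 18 H2A, 18 H2B, 12 H3 and 13 H4. The comparison was between 3 EMT6 libraries labelled PFKFB4-KO and 3 EMT6 libraries labelled WT. EMT6 is a mouse mammary carcinoma cell line, and PFKFB4 is a bifunctional enzyme that regulates glycolysis; both groups grew in high-glucose DMEM with serum. Per the labels these are biological replicates, but the labels give no culture or clone for any library. The p-values therefore rest on the scatter among these 6 libraries, which may be partly technical. A human line of the same series, MDA-MB-231, was not used here.

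The core histones H2A, H2B, H3 and H4 form the nucleosome, and H1 binds the DNA between nucleosomes. Most mRNAs of clustered histone genes are made in S phase, when DNA is copied, and end in a conserved stem-loop bound by the protein SLBP in place of a poly(A) tail. A poly(A)-selected library therefore takes up these mRNAs poorly: a value can reflect polyadenylated transcripts of the gene or carry-over of RNA without a tail. The libraries were made from poly(A) mRNA, so each level below is a level in poly(A) libraries and not the amount of histone mRNA in the cells. In bulk RNA, a different share of cells in S phase and a different amount of histone mRNA per cell cannot be told apart.

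The stem-loop letters were read from the GENCODE M21 transcripts (GRCm38) for the genes on which the results turn. The histone stem-loop consensus was found after the stop codon in 46 of the 67 genes (68.7%), between 21 and 58 nt past it, and anywhere in 1.9% of 58725 other protein-coding transcripts. The H4 genes carried a stem that starts GGCCCT or, in 2 of them, GGTCCT, and the other types a stem that starts GGCTCT; the most frequent form, shown for Hist1h1c, occurred in 26 genes. Of the 21 genes without the letters, 17 have a model that ends under 50 nt past the stop codon, most of them at it, so that little or no sequence was there to search. The lines below show the stem-loop in capitals, with up to 7 bases on each side.
Hist1h1c: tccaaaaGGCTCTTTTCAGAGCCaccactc
Hist2h2aa2: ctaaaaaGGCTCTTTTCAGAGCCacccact
Hist2h2ac: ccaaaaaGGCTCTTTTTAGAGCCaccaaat
Hist1h2ap: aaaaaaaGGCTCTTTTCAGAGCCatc
Hist1h3g: ctttaaaGGCTCTTCTTAGAGCCacccatc
Hist1h4n: aactaaaGGCCCTTTTCAGGGCCatccaat
Hist1h4i: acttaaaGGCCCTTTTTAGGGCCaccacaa
Hist1h4n, which was higher in PFKFB4-KO, and Hist1h2ap, whose groups overlapped, both carry the full stem-loop letters. The model of Hist1h2ap ends 3 nt past it.

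The deposited values are TPM, a transcript level corrected for gene length and scaled to the same total in every library. Pfkfb4 itself had 6.96, 6.87 and 8.24 TPM in PFKFB4-KO, against 10.2, 10.5 and 10.4 TPM in WT, so the knockout libraries were lower but far from 0 (log2 fold change -0.45, adjusted p = 0.00487, limma). The epithelial genes Epcam and Cdh1 were at or near 0 in both groups, at no more than 0.225 TPM in PFKFB4-KO and 0.288 TPM in WT. Of the keratins, Krt8 averaged 535 TPM in PFKFB4-KO and 482 TPM in WT, Krt18 15.5 TPM in PFKFB4-KO and 36.3 TPM in WT, Krt14 3.94 TPM in PFKFB4-KO and 36.5 TPM in WT, and Krt19 0.0177 TPM in PFKFB4-KO and 1.95 TPM in WT. Krt8 was called higher and the other 3 lower. The leukocyte marker Ptprc reached 0.0041 TPM at most, while Cd68, a lysosomal protein of macrophages and other cells, averaged 56.1 TPM in PFKFB4-KO and 23.9 TPM in WT. Of the 8 leukocyte markers 7 averaged under 1 TPM in both groups, and of the 8 epithelial ones 5 did in PFKFB4-KO and 4 in WT. The 5 endothelial markers summed to at most 0.0415 TPM in PFKFB4-KO and 0.0837 TPM in WT. Over all 13499 tested genes the median log2 fold change was -0.21, so a value of 0 stands above the median gene.

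Most clustered histone genes were low in both groups. Of the 67, 15 averaged 1 TPM or more over the 6 libraries, 33 were under 0.5 TPM, and 53 of the 402 single values were exactly 0. Hist1h2ba, a testis H2B, and Hist1h4m were at 0 in every library. The number of reads behind a TPM value is not known, so no counting interval can be given. The median gene shared 54.1% of its 50-base words with another gene, and 34 genes shared at least 50%. For those, the way reads were assigned among copies could move a value from 1 gene to another.

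Testing needed 0.5 TPM or more in 3 or more libraries, which 35 members reached. With limma on log2(TPM + 1), 24 were called higher in PFKFB4-KO at an adjusted p of 0.05, 1 (Hist2h2be) was called lower and 10 were not called. Over all tested genes 14.5% were called higher and 42.3% lower. Of the 35, 10 had no WT library at 0.5 TPM and entered through the knockout libraries alone, so their count is tied to the filter. Among the 12 members with at least 0.5 TPM in all 3 WT libraries, 7 were called higher, 1 lower and 4 neither. With no filter, 23 of the 65 members above 0 in any library were called higher and 1 lower, against 6.7% and 19.5% of 28137 genes. All PFKFB4-KO libraries stood above all WT libraries in 31 of the 67 members, below in 1, and overlapped in 35; over 28137 genes above 0 the groups separated upward in 11.2% and downward in 29.2%. A fold change on the log2(TPM + 1) scale understates the change of low genes, and the TPM values are given beside it for that reason.

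**Figure D1:**
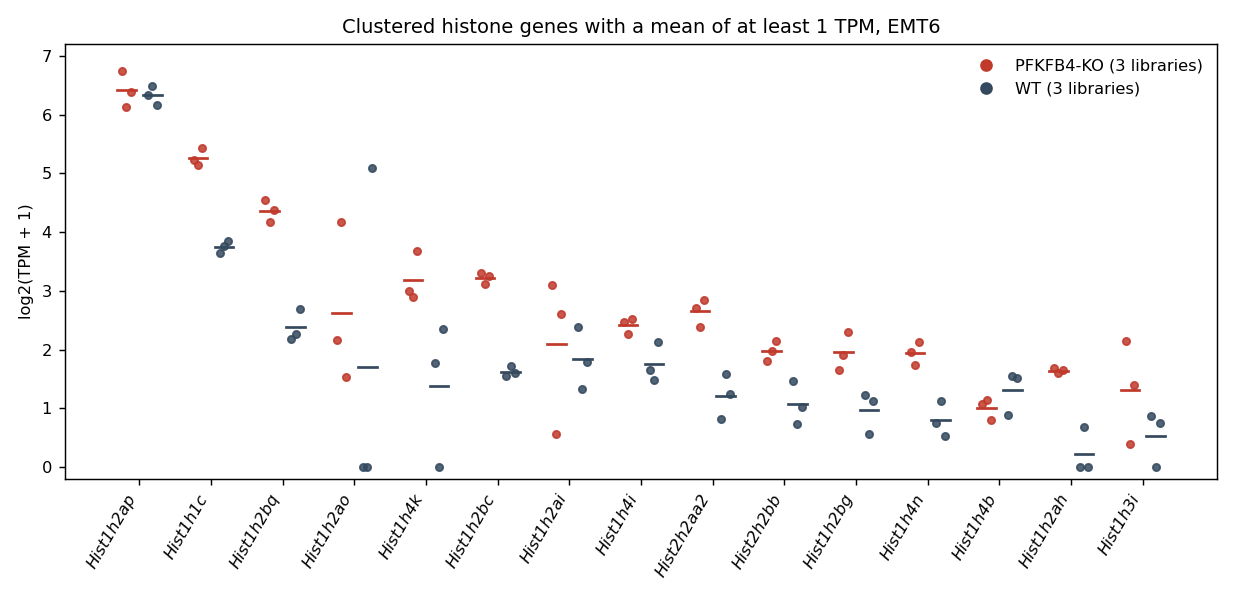
Levels of the 15 clustered histone genes that averaged 1 TPM or more, ordered by that average; the vertical axis is log2(TPM + 1), each point is 1 library, short lines are group means, and PFKFB4-KO (red) stands left of WT (dark). Hist1h1c, Hist1h2bq and Hist1h2bc separate the groups with a wide gap, while Hist1h2ap, the most abundant gene, overlaps.

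All 4 tested H1 genes were called higher in PFKFB4-KO, of which Hist1h1a and Hist1h1e entered the test through the knockout libraries alone. Hist1h1c, a linker histone subtype, was the most abundant of the clustered H1 genes in both groups and carried 90.9% of the H1 sum in PFKFB4-KO and 91.0% in WT. Its level was 36.6, 34.1 and 42.4 TPM in PFKFB4-KO, against 11.6, 12.5 and 13.3 TPM in WT. The lowest knockout library was above every WT library, and the difference was 1.52 ± 0.09 on the log2 scale (SE; adjusted p = 0.000205). Only 8.5% of its 50-base words occur in another gene. The other tested linker subtypes stood near 1 TPM in the knockout. Hist1h1a had 1.05, 0.787 and 1.23 TPM in PFKFB4-KO, against 0.26, 0.27 and 0.459 TPM in WT (log2 fold change 0.60, adjusted p = 0.0053). Hist1h1b had 0.903, 0.954 and 1.84 TPM in PFKFB4-KO, against 0.453, 0.577 and 0.416 TPM in WT (0.57, adjusted p = 0.0294). Neither Hist1h1a nor Hist1h1b shares any 50-base word with another gene. Hist1h1e had 0.832, 0.957 and 1.05 TPM in PFKFB4-KO, against 0.302, 0.364 and 0.174 TPM in WT (0.61, adjusted p = 0.0022). The exons of Hist1h1e overlap those of Hist1h2be by 496 nt on the same strand, so reads there could belong to either.

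H2A was the most abundant type and the one whose total differed least. Its sum was dominated by Hist1h2ap, with 107, 69.0 and 82.3 TPM in PFKFB4-KO, against 79.3, 88.7 and 70.7 TPM in WT. The groups overlapped, and the log2 fold change was 0.09 ± 0.17 (SE; adjusted p = 0.664). Its near-identical neighbour Hist1h2ao had 3.47, 17.1 and 1.90 TPM in PFKFB4-KO, against 0, 0 and 33.2 TPM in WT, an uneven pattern within both groups (adjusted p = 0.634). Without WT replicate 3 this gene was called higher, with an adjusted p of 0.0438. Summed per library, Hist1h2ap and Hist1h2ao gave 93.4 ± 14.4 TPM in PFKFB4-KO and 90.6 ± 12.4 TPM in WT (SD, n = 3 each), with a log2 fold change of 0.04 (adjusted p = 0.817, limma). Hist1h2ai also overlapped, with 7.56, 0.477 and 5.13 TPM in PFKFB4-KO against 4.25, 1.52 and 2.46 TPM in WT.

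Of the 11 tested H2A genes, 5 were called higher and none lower; Hist3h2a entered the test through the knockout libraries alone. Hist2h2aa2 had 5.58, 4.21 and 6.22 TPM in PFKFB4-KO, against 0.772, 2.00 and 1.37 TPM in WT (log2 fold change 1.43 ± 0.22, adjusted p = 0.00294). All of its words occur in another gene, and with its near-identical copy Hist2h2aa1 added the change was 1.39 (adjusted p = 0.00214). Its exons also lie opposite an antisense gene over 528 nt, and without strand the reads of both cannot be told apart. Hist1h2ah had 2.21, 2.04 and 2.14 TPM in PFKFB4-KO, against 0, 0.601 and 0 TPM in WT (1.42 ± 0.19, adjusted p = 0.00203), with 92.1% of its words shared. Of its words, 73.3% occur in the far more abundant Hist1h2ap, so the assignment of reads could move its value. Hist2h2ac had 1.65, 1.10 and 1.23 TPM in PFKFB4-KO, against 0.126, 0.159 and 0.859 TPM in WT (0.79, adjusted p = 0.0234). Hist1h2ae had 1.13, 1.30 and 0.969 TPM in PFKFB4-KO, against 0.338, 0.405 and 0.528 TPM in WT (0.58, adjusted p = 0.00294). Hist3h2a, of the Hist3 cluster, had 0.784, 0.730 and 1.10 TPM in PFKFB4-KO, against 0.386, 0.408 and 0.483 TPM in WT (0.39, adjusted p = 0.0148), but 708 nt of its exons overlap Trim17 on the same strand. In these 5 genes every knockout library was above every WT library. The remaining tested H2A genes, Hist1h2ab, Hist1h2ag and Hist1h2ak, were under 1 TPM in both group means and overlapped.

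H2B held the largest log2 fold change among tested members on the log2(TPM + 1) scale, and their only lower call. Hist1h2bq had 22.3, 17.0 and 19.8 TPM in PFKFB4-KO, against 3.54, 3.82 and 5.45 TPM in WT, which is 1.98 ± 0.16 on the log2 scale (adjusted p = 0.000436). Because 97.3% of its words are shared, mostly with Hist1h2br, the sum of both was also tested and changed by 1.95 (adjusted p = 0.000442). Hist1h2br alone had 0.608, 0.625 and 0.529 TPM in PFKFB4-KO, against 0.255, 0.241 and 0.337 TPM in WT (0.31, adjusted p = 0.00842). Hist1h2bc, of which 30.6% is shared, had 8.87, 7.72 and 8.54 TPM in PFKFB4-KO, against 1.93, 2.32 and 2.04 TPM in WT. Its fold change of 1.6 ± 0.08 (adjusted p = 0.000127) carried the smallest p of the 35 tested members, and replicates within each group lay close together. Hist2h2bb had 2.48, 2.93 and 3.42 TPM in PFKFB4-KO, against 1.78, 0.663 and 1.05 TPM in WT (0.89, adjusted p = 0.0116, limma). The exons of Hist2h2bb lie opposite an antisense gene over 381 nt, and all its words are shared. They also overlap a long noncoding RNA gene on the same strand over 226 nt. Hist1h2bg had 2.14, 2.76 and 3.95 TPM in PFKFB4-KO, against 1.35, 0.473 and 1.17 TPM in WT (0.99, adjusted p = 0.0148). Hist1h2be had 0.810, 0.511 and 0.817 TPM in PFKFB4-KO, against 0.250, 0.268 and 0.239 TPM in WT (0.45, adjusted p = 0.00777). Hist2h2be went the other way, with 0.580, 0.497 and 0.614 TPM in PFKFB4-KO against 1.03, 0.897 and 1.10 TPM in WT. Its groups did not overlap, its log2 fold change was -0.36 ± 0.07 (adjusted p = 0.00699), and none of its words occur in another gene. Hist1h2be and Hist1h2br entered the test through the knockout libraries alone. Hist1h2bl was tested and overlapped.

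H3 had the lowest summed level of the 5 types, and 2 of the 4 tested were called higher. Hist1h3g had 0.507, 0.980 and 1.05 TPM in PFKFB4-KO, against 0.192, 0.282 and 0.430 TPM in WT (log2 fold change 0.49, adjusted p = 0.0268). Hist1h3a had 0.518, 0.703 and 0.551 TPM in PFKFB4-KO, against 0.276, 0.266 and 0.159 TPM in WT (0.37, adjusted p = 0.0091). Both were separated between the groups but entered the test through the knockout libraries alone. Hist1h3i, the H3 gene with the highest mean over all 6 libraries, varied within groups, with 3.44, 0.312 and 1.63 TPM in PFKFB4-KO against 0.826, 0 and 0.681 TPM in WT (0.77, adjusted p = 0.212). Without PFKFB4-KO replicate 2 it was called higher (adjusted p = 0.0365). Hist1h3h had 0, 1.06 and 1.19 TPM in PFKFB4-KO against 0, 1.10 and 1.25 TPM in WT, and its groups overlapped.

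Of the 8 tested H4 genes, which encode a near-invariant core histone, 7 were called higher, of which Hist1h4a, Hist1h4h and Hist1h4j entered the test through the knockout libraries alone. Hist1h4k had 6.96, 6.42 and 11.8 TPM in PFKFB4-KO, against 2.41, 0 and 4.12 TPM in WT (log2 fold change 1.81 ± 0.62, adjusted p = 0.0472), and 71.5% of its words are shared. Hist1h4n, with 85.6% of its words shared, mostly with the silent Hist1h4m, had 2.89, 2.34 and 3.37 TPM in PFKFB4-KO against 0.687, 1.19 and 0.448 TPM in WT (1.14 ± 0.18, adjusted p = 0.0032). Hist1h4i had 4.53, 3.79 and 4.75 TPM in PFKFB4-KO, against 2.15, 1.81 and 3.37 TPM in WT (0.66, adjusted p = 0.0224). These 3 genes held the highest H4 levels of the knockout, and in each the groups did not overlap. Hist1h4f had 0.987, 1.37 and 1.38 TPM in PFKFB4-KO, against 0.544, 0.618 and 0.611 TPM in WT (0.49, adjusted p = 0.00568). Hist1h4h had 0.596, 0.942 and 1.51 TPM in PFKFB4-KO, against 0.424, 0 and 0.107 TPM in WT (0.77, adjusted p = 0.0215). Hist1h4j had 0.889, 0.783 and 0.988 TPM in PFKFB4-KO, against 0.377, 0.323 and 0.213 TPM in WT (0.53, adjusted p = 0.00264). Hist1h4a had 0.698, 0.673 and 1.24 TPM in PFKFB4-KO, against 0.130, 0.424 and 0.250 TPM in WT (0.55, adjusted p = 0.0211). Hist1h4b had 1.10, 1.21 and 0.737 TPM in PFKFB4-KO against 0.861, 1.93 and 1.86 TPM in WT (-0.32, adjusted p = 0.227), overlaps an antisense gene over 223 nt, and was called lower without WT replicate 1 (-0.53, adjusted p = 0.0224).

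Several of the weaker calls were lost when 1 library was left out. Without WT replicate 1, the adjusted p was 0.0761 for Hist1h1b, 0.0682 for Hist2h2ac, 0.0797 for Hist1h3g, 0.0633 for Hist1h4a, 0.0663 for Hist1h4i and 0.0737 for Hist1h4k. Without WT replicate 2 it was 0.0529 for Hist1h1b, 0.0675 for Hist2h2ac, 0.0685 for Hist1h3g, 0.0622 for Hist1h4h and 0.0552 for Hist1h4i. Without WT replicate 3 it was 0.0777 for Hist1h1b, 0.0594 for Hist1h4h and 0.0547 for Hist1h4a. Leaving out a knockout library took 10 of the 25 called members out of the test, because fewer libraries then reached 0.5 TPM. Among the rest, Hist1h4k lost its call without any 1 of the 3 (adjusted p 0.0768 to 0.126), and Hist2h2ac and Hist1h4i lost theirs without PFKFB4-KO replicate 1 (0.0693 and 0.0637) or 3 (0.0543 and 0.0672). Hist1h1c, Hist1h2bc, Hist1h2bq, Hist1h2ah, Hist1h4n and Hist2h2aa2 were called in all 14 alternatives. None of these 14 changed how reads were assigned among copies.

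The 32 members that missed the filter were all under 0.61 TPM on their mean over the 6 libraries. They comprise 2 H1, 7 H2A, 10 H2B, 8 H3 and 5 H4 genes. Hist1h1d, Hist1h2ac, Hist1h2bh, Hist1h2bj, Hist1h3c, Hist1h3d and Hist1h4c had every knockout library above every WT library at these low levels, and none was separated the other way. Hist1h2af showed how uneven such values were, with 1.86, 0.768 and 0.219 TPM in PFKFB4-KO against 0.156, 0.200 and 0.444 TPM in WT. Among the 46 members with a mean of 0.1 to 1 TPM, 21 were separated upward and 1 downward, against 10.2% and 24.9% of 4977 genes at that level.

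**Figure D2:**
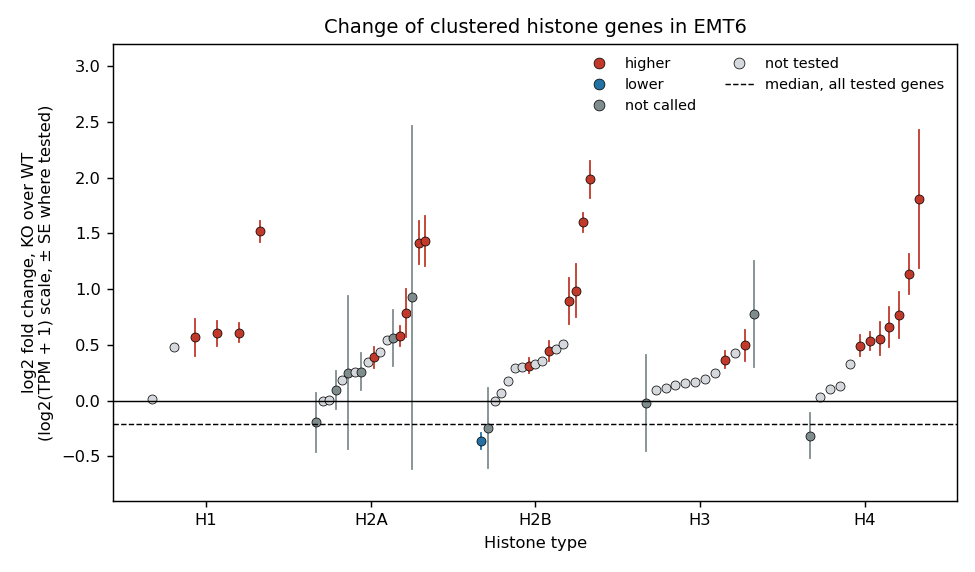
Log2 fold change (PFKFB4-KO over WT, log2(TPM + 1) scale) of each clustered histone gene above 0, by histone type and in increasing order within a type; bars are SE for tested genes and the dashed line is the median of all tested genes, -0.21. Calls to higher levels appear in every type, and the single lower call is an H2B gene, Hist2h2be.

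Added up per library, the 67 genes gave 243.7, 200.4 and 230.0 TPM in PFKFB4-KO, against 123.8, 132.3 and 156.5 TPM in WT. The means were 224.7 ± 22.1 TPM in PFKFB4-KO and 137.5 ± 17.0 TPM in WT (SD, n = 3 each), a ratio of 1.63. Hist1h2ap made up 38.0% of this sum in PFKFB4-KO and 58.8% in WT. Without Hist1h2ap and Hist1h2ao the sums were 131 ± 15.9 TPM in PFKFB4-KO and 46.9 ± 5.02 TPM in WT, a ratio of 2.80. The H1 sum was 41.5 ± 5.09 TPM in PFKFB4-KO and 13.7 ± 0.933 TPM in WT, and the H2B sum 40.8 ± 4.03 TPM in PFKFB4-KO and 12.8 ± 1.34 TPM in WT. The H3 sum was 6.76 ± 1.10 TPM in PFKFB4-KO and 3.18 ± 0.447 TPM in WT, and the H4 sum 21.8 ± 4.41 TPM in PFKFB4-KO and 8.91 ± 2.50 TPM in WT. The H2A sums were the only ones to overlap between libraries, at 114 ± 18 TPM in PFKFB4-KO and 99.0 ± 12.7 TPM in WT. These sums are descriptions with no test.

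By cluster, 20 of the 30 tested Hist1 genes were called higher and none lower, and of the 4 tested Hist2 genes 3 were higher and 1 lower. The Hist1 genes on chromosome 13 form 2 blocks in GRCm38. The block at chr13:21715763-22043676 holds 23 members, of which 16 were tested and 8 called higher. The block at chr13:23531050-23934851 holds 31, of which 14 were tested and 12 called higher. Of those tested, 2 in the first block and 7 in the second entered the test through the knockout libraries alone, so the counts of the blocks are not comparable. The 3 other protein-coding genes inside these blocks that could be tested, Prss16, Zfp184 and the iron regulator Hfe, had log2 fold changes of 0.05, -0.11 and 0.18, and none was called. Hist4h4 alone on chromosome 6 had 0.244, 0.260 and 0.273 TPM in PFKFB4-KO and 0.226, 0.298 and 0.182 TPM in WT and was not tested.

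Many H2A and H2B genes lie head to head and share the DNA between their starts, and 13 such pairs (12 of them H2A with H2B) had starts 175 to 659 nt apart. In 1 pair, Hist1h2ae with Hist1h2bg, both genes were called higher. In 9 pairs both log2 fold changes were above 0, and some of these genes were too low to be tested. Of all 67 members, 57 had a higher mean in PFKFB4-KO, so many pairs with both partners above 0 would arise from that share. Whether partners changed together beyond it was not tested. Among the 9 is Hist1h2bq with Hist1h2ao, although the mean of Hist1h2ao was lower in PFKFB4-KO (7.49 TPM) than in WT (11.1 TPM). The pair of Hist2h2ac and Hist2h2be, 238 nt apart, carried opposite calls, at 0.79 and -0.36. The call of Hist2h2ac held in 8 of 14 alternatives, and that of Hist2h2be in all 13 that gave it a value. Hist2h2ac averaged 1.33 TPM in PFKFB4-KO and 0.381 TPM in WT, whereas Hist2h2be averaged 0.563 TPM in PFKFB4-KO and 1.01 TPM in WT. The gap in Hist1h2ah with Hist1h2bk and in Hist1h2ac with Hist1h2bc was of another kind: 1 partner was called higher and the other, under 0.6 TPM in both group means, was not tested.

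**Figure D3:**
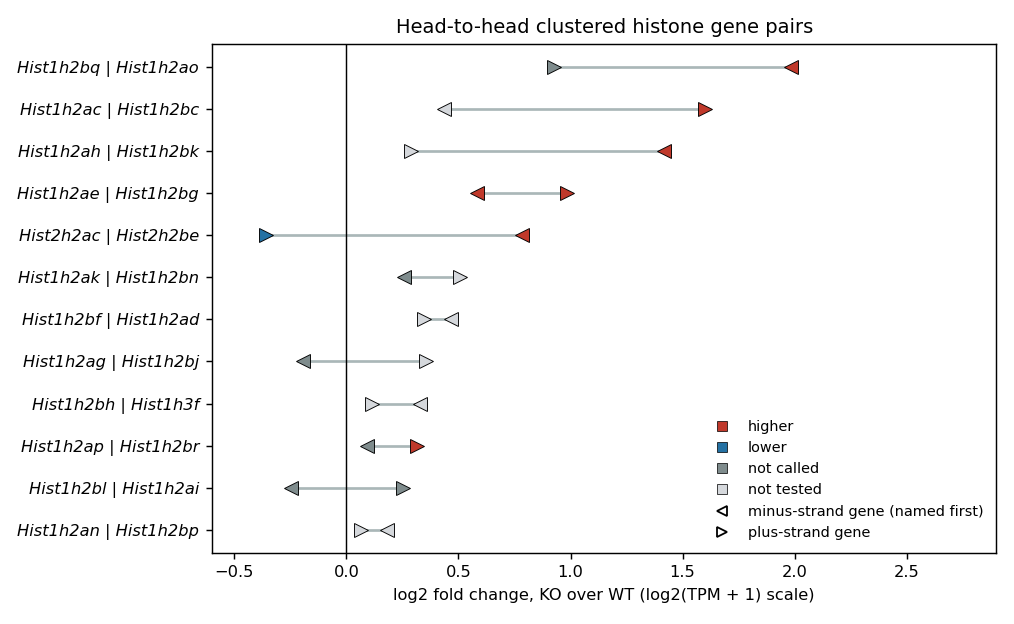
Log2 fold changes (PFKFB4-KO over WT, log2(TPM + 1) scale) of the genes in 12 head-to-head pairs, with left-pointing triangles for the minus-strand gene and right-pointing ones for the plus-strand gene; the pair with the silent Hist1h2ba is left out. Hist2h2ac and Hist2h2be lie on opposite sides of 0, at 0.79 and -0.36. This scale understates the change of low genes, such as Hist1h2ac.

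Promoter sequence of 250 bases before to 50 after the gene start came from RefSeq (GRCm38.p6) for 62 of the 67 genes. Searched on both strands were TATAAA, which places the start of transcription, CCAAT, the binding site of the factor NF-Y, the octamer ATTTGCAT, known from H2B promoters, and AAACACA, known as the H1 box. None of these motifs contains another. TATAAA was present in 56.45% of the members and 13.62% of all 32851 promoters, and CCAAT in 85.48% against 37.41%. CCAAT was in every H1, H2A, H2B and H3 promoter searched but in 25% of the H4 promoters. ATTTGCAT was in 38.89% of H2A and 37.5% of H2B promoters, in no H1, H3 or H4 promoter, and in 1.74% of all promoters. AAACACA was in 83.33% of H1 promoters and 7.18% of all promoters. A match describes the letters only. The lines below give the promoter of Hist1h1c, the abundant H1 gene that rose, at chr13:23738557-23738856 on the plus strand, and that of Hist2h2ac at chr3:96220831-96221130 on the minus strand, which also spans the gap to Hist2h2be, the gene that fell. Capitals mark the motifs on either strand.
Hist1h1c: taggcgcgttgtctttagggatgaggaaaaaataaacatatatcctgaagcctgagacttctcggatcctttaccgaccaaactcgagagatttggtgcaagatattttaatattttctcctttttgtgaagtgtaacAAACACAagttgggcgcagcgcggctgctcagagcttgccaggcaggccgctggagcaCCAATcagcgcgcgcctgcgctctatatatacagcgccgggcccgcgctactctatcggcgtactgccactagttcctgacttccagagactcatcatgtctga
Hist2h2ac: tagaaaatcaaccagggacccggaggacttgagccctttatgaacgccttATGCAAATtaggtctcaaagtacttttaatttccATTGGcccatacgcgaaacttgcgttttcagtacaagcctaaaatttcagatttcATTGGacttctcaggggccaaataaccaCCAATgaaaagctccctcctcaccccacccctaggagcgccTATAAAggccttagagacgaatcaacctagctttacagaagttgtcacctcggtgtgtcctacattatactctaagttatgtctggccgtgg
The Hist1h1c window holds an H1 box and a CCAAT box, and the window between Hist2h2ac and Hist2h2be holds an octamer, CCAAT boxes on both strands and a TATA box.

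The annotated transcript models end in different places. In 23 genes the model runs over 100 nt past the stem-loop, as in Hist1h1c, where it goes on for 840 nt. All 9 of these that were tested were called higher, with a median log2 fold change of 0.58, but 5 of them entered the test through the knockout libraries alone. In another 23 the model ends within 100 nt of the stem-loop, and 7 of 12 tested were higher, with a median of 0.53. In 17 it ends under 50 nt past the stop codon without the stem-loop letters, and 5 of 10 tested were higher, with a median of 0.59. The 4 genes with longer models and no stem-loop letters were all tested. They are Hist1h2bc, Hist1h2bq and Hist1h2br, which were higher, and Hist2h2be, which was lower. Over all tested genes 14.5% were called higher and 42.3% lower, with a median of -0.21. Among tested protein-coding genes with up to 800 nt of exons, 48.9% were called higher and 12.8% lower. Members whose model ends near the stem-loop have at most 706 nt of exons, and those that end by the stop codon at most 743 nt. Their shares of higher calls are thus near that of short genes. The difference between these classes was not tested. In the last 3 classes, 3, 1 and 1 of the tested genes entered through the knockout libraries alone.

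Most histone models are short, and short genes as a whole were higher in the knockout. Of 188 tested protein-coding genes with up to 800 nt of exons, 48.9% were called higher and 12.8% lower, with a median log2 fold change of 0.31. In that class 17 of the 27 tested members were called higher and none lower, with a median of 0.57. Among 10916 protein-coding genes over 800 nt, 14.6% were higher and 46.6% lower, and of the 8 tested members of that length 7 were higher and 1 lower. Of the tested members, 6 of the 27 shorter and 4 of the 8 longer ones entered the test through the knockout libraries alone. The member counts are therefore tied to the filter. With a trend on exon length removed from the values, 13 of the 24 higher calls held. Hist1h1b, Hist1h2bg, Hist2h2ac, Hist2h2bb, Hist1h3a, Hist1h3g, Hist1h4a, Hist1h4f, Hist1h4h, Hist1h4i and Hist1h4k lost theirs (adjusted p 0.0654 to 0.728), and Hist1h4b was called lower (-0.68, adjusted p = 0.0264). Of the genes whose higher call held, Hist1h1a, Hist1h1e, Hist1h2be, Hist1h2br, Hist1h4j and Hist3h2a had entered the test through the knockout libraries alone. Hist1h1c still changed by 1.42, Hist1h2bc by 1.43 and Hist1h2bq by 1.96 on the log2 scale. The part of gene length in these changes was not tested.

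Some other RNAs that carry no poly(A) tail also stood higher in the knockout libraries. Of 15 tested genes in a list of such RNAs, 6 were called higher, none lower and 9 neither, with a median log2 fold change of 1.05. Over all tested genes 14.5% were called higher and 42.3% lower. With the exon length trend removed, 5 were called higher and none lower, with a median of 0.53. That setting gave 23.2% higher and 26.6% lower over all genes. Rn7sk, a small nuclear RNA that holds back transcription elongation, had 85.7, 94.0 and 105 TPM in PFKFB4-KO, against 18.5, 21.1 and 17.5 TPM in WT (2.26 ± 0.10, adjusted p = 7.55e-05). Rmrp, the RNA of the RNase MRP complex, had 24.2, 29.7 and 46.7 TPM in PFKFB4-KO, against 5.76, 4.97 and 4.71 TPM in WT (2.44 ± 0.24, adjusted p = 0.00069). The row Mir6236 had 54869, 67607 and 71324 TPM in PFKFB4-KO, against 32332, 28131 and 30750 TPM in WT (1.08, adjusted p = 0.000877). In all 3 RNAs the groups did not overlap. The 3 RNAs were higher in PFKFB4-KO, as were most tested histone genes. Within PFKFB4-KO, each of the 3 was highest in replicate 3. The histone sum was highest in replicate 1, at 243.7 TPM, but without Hist1h2ap it was highest in replicate 3. That sum was 137.2, 131.4 and 147.7 TPM in PFKFB4-KO replicates 1, 2 and 3. Whether the histone values follow the amount of RNA without a tail in the libraries was not tested.

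Histone genes outside the clusters, whose mRNAs are mostly polyadenylated, had a median log2 fold change of -0.03. Of 9 tested, 1 was called higher, 2 lower and 6 neither, against 14.5% higher and 42.3% lower over all tested genes. With median-ratio scaling 5 were higher and 1 lower, with a median of 0.21, against 27.1% and 24.7% of all genes. With the exon length trend removed 4 were higher and 3 lower, with a median of -0.01, against 23.2% and 26.6% of all genes. H2afj, an H2A variant, averaged 28.3 ± 3.49 TPM in PFKFB4-KO and 20.4 ± 2.24 TPM in WT (0.46, adjusted p = 0.0174). H1f0, the linker histone of resting and differentiated cells, averaged 53.9 ± 0.925 TPM in PFKFB4-KO and 102 ± 4.21 TPM in WT (-0.91, adjusted p = 9.9e-05), opposite to Hist1h1c. H3f3b, a gene for the replacement histone H3, averaged 328 ± 5.49 TPM in PFKFB4-KO and 384 ± 5.49 TPM in WT (-0.23, adjusted p = 0.00219), but was at 0.02 with libraries scaled by median ratio.

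Of 30 tested genes of DNA replication in S phase, 11 were called higher and 10 lower, with a median of 0.06. Over all tested genes 14.5% were higher and 42.3% lower, with a median of -0.21. With median-ratio scaling 16 replication genes were higher and 2 lower, against 27.1% and 24.7% of all genes. With the exon length trend removed 16 were higher and 3 lower, with a median of 0.17, against 23.2% and 26.6% of all genes. Gins2, a subunit of the replicative helicase, averaged 48.5 ± 2.56 TPM in PFKFB4-KO and 33.9 ± 2.43 TPM in WT (0.51, adjusted p = 0.00198). Rpa2 (0.31) of the single-strand binding complex and Rfc4 (0.26) of the clamp loader were also higher. Ccne2, a cyclin of S phase entry, averaged 7.17 ± 1.36 TPM in PFKFB4-KO and 17.2 ± 3.26 TPM in WT (-1.15, adjusted p = 0.00268), and the origin factor Cdc6 was at -0.39. Slbp, whose protein binds the stem-loop, averaged 51.3 ± 2.01 TPM in PFKFB4-KO and 65.4 ± 1.54 TPM in WT (-0.34, adjusted p = 0.00175), and was at -0.10 and not called with median-ratio scaling (adjusted p = 0.0679).

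Genes that act on histone mRNA 3′ ends were called lower more often than higher, as were all tested genes (42.3% lower and 14.5% higher). Of 24 tested, 4 were higher and 13 lower, with a median of -0.17, and with median-ratio scaling 9 were higher and 6 lower. With the exon length trend removed 8 were higher and 6 lower, with a median of 0.02. Over all genes that setting gave 23.2% higher and 26.6% lower. Lsm10 (0.41), a part of the histone-specific U7 particle, and the Sm proteins Snrpe (0.40) and Snrpb (0.18) were higher, while Casp8ap2 (-1.05), Cpsf1 (-0.53) and Cpsf2 (-0.47) were lower. Of 15 tested genes of histone mRNA decay, 4 were higher and 5 lower, with a median of 0.01; with median-ratio scaling 8 were higher and 1 lower, with a median of 0.24. Lsm4 (0.41), Lsm6 (0.25) and Exosc10 (0.20) rose, and Tut7 (-0.29), Lsm2 (-0.32) and Eri1 (-0.66), the exonuclease that trims the stem-loop end, fell. With median-ratio scaling Tut7 and Lsm2 were at -0.06 and -0.07. With the exon length trend removed 7 decay genes were higher and none lower. Lsm4, Lsm6 and Exosc10 kept their calls, and Tut7 was higher (0.19, adjusted p = 0.0167, limma). Lsm2 and Eri1 were then not called (adjusted p 0.0579 and 0.0768, limma). Of 13 transcription factors and regulators of histone genes, 1 was higher (E2f1, 0.30) and 9 lower, with a median of -0.46; among them were Tbp (-1.12), Ccne2 and Casp8ap2, a component of histone locus bodies. Of 23 histone chaperones and carriers, 3 were higher, namely Rbbp4 (0.37), Chaf1b (0.72) and Nasp (0.26), and 11 lower, among them Hjurp (-1.19), Ipo4 (-0.52) and Atrx (-1.41), with a median of -0.24. With median-ratio scaling the chaperones split into 8 higher and 5 lower, and the transcription list into 2 higher and 6 lower. With the exon length trend removed the chaperones again had 8 higher and 5 lower. The transcription list then had 1 higher and 5 lower, with a median of -0.06.

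**Figure D4:**
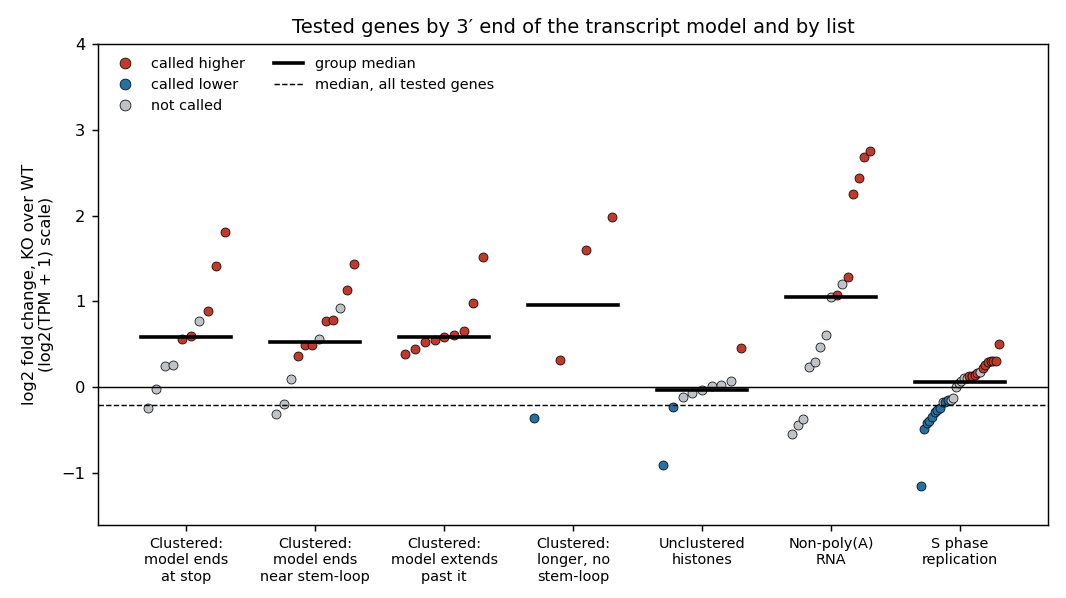
Log2 fold changes (PFKFB4-KO over WT, log2(TPM + 1) scale) of tested genes, for clustered histone genes by the end of their transcript model and for 3 other lists; thick lines are group medians and the dashed line is the median of all tested genes. The medians are 0.59, 0.53, 0.58 and 0.96 for the 4 classes of clustered genes, -0.03 for unclustered histones, 1.05 for RNAs without a poly(A) tail and 0.06 for S phase replication genes.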

How the data were processed

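EMT6 RNA was purified on miRNeasy columns and sequenced as single-end poly(A) mRNA libraries (mRNA HyperPrep kit), per the labels' protocols. The submitters' processing notes name, in no stated order, Subread 1.6.4 with featureCounts, TopHat2 2.1.1 and CASAVA 1.8.2, and the build mm10. No source used here gives the strand setting or the treatment of reads that match several genes. Values were deposited by the authors as TPM, scaled per library, so the reads behind a value are not known. The knockout columns carry the code A7 and were taken as the PFKFB4-KO libraries by elimination, since the other 3 columns are named as wild type.

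Names, exon models and stem-loops came from GENCODE M21, and promoters from RefSeq. All tested genes were fitted together with limma 3.58.1 (R 4.3.3) on log2(TPM + 1), with a mean-variance trend and no covariate, for genes with at least 0.5 TPM in at least 3 of 6 libraries; p-values were adjusted by Benjamini-Hochberg over 13499 genes and called at 0.05. The fit was tested on simulated data. Alternatives were no trend, median-ratio scaling, no filter, a minimum of 1 TPM, a pseudocount of 0.1, each library left out, a replicate block, an exon length trend removed, and genes under 300 nt left out. Near-identical pairs were summed as an alternative chosen after seeing the data. Members, lists and alternatives were chosen with earlier results of these data known. Genes are given in every library where they averaged at least 1 TPM over the 6 libraries or were called; of other lists, up to 3 in each direction with the smallest adjusted p are named. Copies were compared by 50-base words of their transcripts.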

Additional observations from a re-analysis of the deposited data

Results flagged for a closer look

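A histone-like row outside the comparison showed a signal above the wild-type level. Hist1h2al, a processed pseudogene on chromosome 13 at 51202727 to 51203065 (GRCm38), had 5.53, 6.62 and 6.27 TPM in PFKFB4-KO, a mean of 6.14 TPM, against 1.5, 1.03 and 1.46 TPM in WT, a mean of 1.33 TPM. Its log2 fold change was 1.62 ± 0.11 (SE; adjusted p = 0.000267, limma). Of its 50-base words, 67.6% also occur in clustered histone genes, so its value may hold reads of those genes, which was not tested.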

How the results depend on the processing

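Of the 25 called members, 14 kept their call and direction in every alternative that gave them a value. The 24 higher calls were 13 with the exon length trend removed, 11 with a minimum of 1 TPM, under which fewer members were tested, and 11 to 22 with 1 library left out. The 1 lower call became 2 with the length trend removed, 0 with a minimum of 1 TPM, which no longer tests Hist2h2be, and 1 to 2 with 1 library left out. Over all genes, 1954 higher and 5705 lower calls became 3660 and 3327 with median-ratio scaling and 3124 and 3589 with the length trend removed. The log2 ratio of the sums was 0.71, against 0.96 with median-ratio scaling and 1.26 without the most abundant gene. With median-ratio scaling the ratio was 1.85 for H1 and 1.93 for H2B. Without the most abundant gene of the type it was 0.53 for H2A and 1.31 for H2B. That H2A sum leaves out Hist1h2ap but still holds its near-identical copy Hist1h2ao, which had 0, 0 and 33.2 TPM in WT. The H2A value of 0.53 therefore does not show how the rest of the H2A genes changed. Without both genes the sum of all types had a log2 ratio of 1.49. The log2 fold changes of the uncalled Hist1h2ap and Hist1h2ai were not stable. Hist1h2ap ranged from -0.072 to 0.24 with 1 library left out and was at -0.24 with the length trend removed. Hist1h2ai ranged from -0.25 to 1.02 with 1 library left out, was -0.01 and -0.00088 without PFKFB4-KO replicate 3 and WT replicate 2, and -0.12 with the length trend removed. With a replicate block, 23 members were called higher and 1 lower, and 1629 and 5022 of all genes; Hist1h1b and Hist1h4h lost their calls and Hist1h3i gained one. Deviations of same-numbered libraries correlated at 0.065, -0.017 and 0.073, so the numbers were not taken to pair the samples, and not every library correlated best with its own number. No filter took 6 calls, among them that of Hist1h4k. With no trend, and again with a pseudocount of 0.1, Hist1h4k was the only member to lose its call. Since the reads behind a TPM value are unknown and most members are under 1 TPM, a difference missed at these levels is not evidence of equal levels.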
